A study of Mus musculus with 119 samples.

Results

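Rn45s and Mir6236 are 2 rows of a table of 18098 genes measured by RNA-seq in libraries of mouse bone marrow-derived macrophages (BMDMs). Both were chosen by their measured values in these data. Rn45s was selected on its rise with LPS in WT cells and its lower level in Map3k8[D270A] cells, and Mir6236 was added as a row that had also passed as a regulated gene. Rn45s is the gene of the long precursor of ribosomal RNA (rRNA). Mir6236 is annotated as a microRNA gene and was grouped with Rn45s under a working label of rRNA-derived reads. The libraries form 25 groups in 5 experiments. Bone marrow was grown in L-cell conditioned medium, and the strain given for every library is C57BL/6(NIMR). WT cells and Map3k8[D270A] cells, which carry a kinase-inactive form of TPL-2, were left without LPS or were given LPS at 100 ng/ml for 0.5, 1, or 2 h (6 libraries per group, 4 for WT at 2 h). Elk1-/-Elk4-/- cells, which lack a pair of TCF transcription factors, had the same times (4 libraries each). Nfkb1[SS/AA] cells, whose p105 protein resists signal-induced proteolysis, were sampled without LPS and at 0.5 and 1 h (6 each). WT cells given the MKK1/2 inhibitor PD0325901 (0.1 µM) were taken without LPS after 10, 40, or 70 min of the compound (3 each), or after 10 min of the compound followed by LPS for 0.5 or 1 h (6 each). Their solvent control was DMSO for 10 min (3 libraries). WT cells given the RSK inhibitor RSKi47 (2 µM) for 10 min were taken without LPS (4) and after LPS for 0.5 h (3), 1 h (4), or 2 h (4). Only the Map3k8[D270A] experiment contains WT libraries without an inhibitor or solvent, so that in any comparison of the other arms with WT cells the arm and the experiment cannot be told apart. RSKi47 has no solvent control of its own.

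Ribosomal RNA is transcribed from many tandem gene copies by RNA polymerase I in the nucleolus, as a long precursor that is cut and modified into the mature 18S, 5.8S, and 28S RNAs. Mature rRNA makes up most of the RNA of a cell, and library kits for mRNA remove most of it, commonly by selecting polyadenylated RNA. Reads assigned to the rRNA precursor row of an mRNA library can come from rRNA or precursor that remained in the library, but the origin of the Rn45s reads was not tested here. In macrophages, LPS signals through TLR4 to NF-κB and to MAPK pathways, among them the chain of TPL-2, MKK1/2, ERK1/2, and RSK.

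The mature miRNA of the Mir6236 locus is shown because it identifies the row. RefSeq places the 123-base gene on the plus strand at chr9:110281287-110281409 of GRCm38.p6, inside the span of the long non-coding gene Gm39429 (chr9:110266638-110282670), which is not a row of the data table. The mature sequence of 19 bases lies at chr9:110281353-110281371, and the capitals mark its seed, bases 2 to 8 counted from the 5′ end.
mmu-miR-6236: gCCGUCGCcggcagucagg
Of its 19 bases, 15 were G or C (78.9%). Among the 1738 mature mouse miRNAs of the RefSeq table, no other had this seed. The whole sequence occurred, on either strand, in 1 of 141767 annotated mouse transcripts, which was Mir6236 itself, and it was not in the 1849-base transcript annotated as rRNA (CT010467.1) in that set. No 28S rRNA and no Rn45s sequence was held in the references used here, so the rRNA origin of Mir6236 reads was not tested by sequence, and no position is given for Rn45s.

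Over the 16 Elk1-/-Elk4-/- libraries Elk1 lay between 6.17 and 6.59 and Elk4 between 5.51 and 5.88 on the deposited log2 scale, below all 103 other libraries (at least 8.55 and 6.88). All 8 macrophage markers (Adgre1, Csf1r, Cd68, Itgam, Lyz2, Cd14, Mertk, and Fcgr1) were measured, with a log2 summed level of 18.35 to 19.23. The 3 T cell markers and the 3 B cell markers stayed under the filter on low values. Of 6 neutrophil markers 5 passed it, with a summed level of 6.09 to 11.04. The medians of the libraries ran from 7.01 to 7.22. The number of reads per library is not known from the table. The study calls the libraries biological replicates, but no source says which came from separate animals. The limma p-values and SEs of the main fit rest on a spread between libraries estimated for each gene over all 25 groups.

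Rn45s was an abundant row whose level jumped between single libraries of the same group. Over all libraries it ranged from 13.56 to 19.81 with a median of 15.06 on the deposited log2 scale, a 75.9-fold range. It was the highest of all rows in 5 libraries and among the top 5 in 14, whereas in the lowest library it ranked 272. Its share of the summed linear values of a library ran from 0.0536% to 3.53%, with a median of 0.157%. The pooled SD within groups was 1.18, the 4th largest of the 11971 genes that passed the filter, for which the median SD was 0.10.

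**Figure D1:**
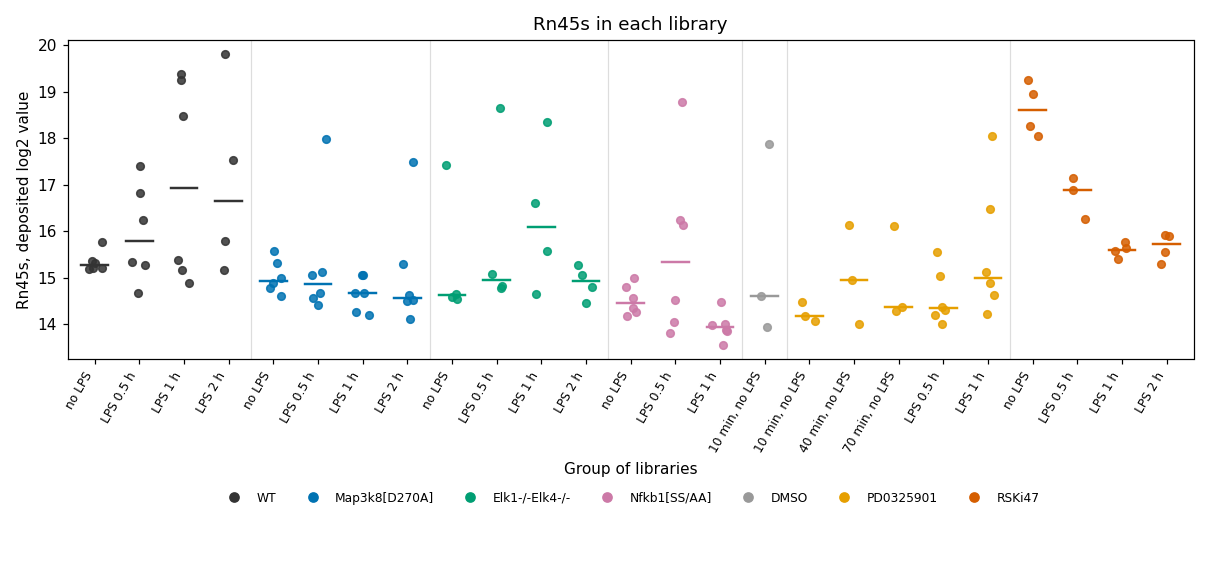
Rn45s in each library (deposited log2 value, y axis) by group (x axis), with 1 point per library and a line at the group median. Single high libraries stand above their groups in most arms, and the 4 RSKi47 libraries without LPS (18.06 to 19.25) lie above all 6 WT libraries without LPS (15.19 to 15.78).

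The jumps were counted as libraries at least 1 log2 unit above the median of all libraries, a limit set after the values were seen. In all, 29 libraries passed it and 90 did not, and the libraries next to the limit were at 15.91 and 16.12. They were 8 of 22 WT libraries, 2 of 24 Map3k8[D270A] libraries, 4 of 16 Elk1-/-Elk4-/- libraries, 3 of 18 Nfkb1[SS/AA] libraries, 4 of 21 PD0325901 libraries, 1 of 3 DMSO libraries, and 7 of 15 RSKi47 libraries. They fell in 15 of the 25 groups, and only in RSKi47 without LPS and RSKi47 with LPS for 0.5 h did every library of a group pass. Outside the inhibitor experiments, 22 replicate numbers of an arm were followed over its times, and 9 had no high library, 10 had 1, 3 had more than 1, and 0 were high at every time. The 3 were WT replicate 6, high at all 3 LPS times (17.40, 19.25, and 17.53), Map3k8[D270A] replicate 2, which held both high libraries of that arm (17.99 at 0.5 h and 17.50 at 2 h), and Elk1-/-Elk4-/- replicate 3 (17.42 without LPS and 18.36 at 1 h).

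In WT cells without LPS, the 6 libraries were close together, with Rn45s at 15.32, 15.20, 15.19, 15.78, 15.37, and 15.22 (replicates 4 to 9). After LPS for 0.5 h the level ranged from 14.67 to 17.40 with a median of 15.79. At 1 h it ranged from 14.88 to 19.38 with a median of 16.94, and 3 libraries (19.38, 18.49, and 19.25) stood more than 3 units above the other 3 (14.88, 15.16, and 15.39). At 2 h the values were 15.16, 19.81, 17.53, and 15.79. The WT groups with LPS thus overlapped the group without LPS at every time, and their means rested on a few libraries.

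The WT and Map3k8[D270A] libraries were those in which Rn45s had been picked as a gene higher after LPS and lower in the mutant, so their differences are given as a description, without a test. The WT mean with LPS lay above that without by 0.61 at 0.5 h, 1.74 at 1 h, and 1.72 at 2 h. Without replicate 6 at 0.5 h the first was 0.32, and without replicate 5 at 2 h the last was 0.81. In Map3k8[D270A] cells the same differences were 0.28, -0.36, and 0.07. Their signs at 0.5 h and 2 h rested on replicate 2 of each group, without which they were -0.25 and -0.41. The Map3k8[D270A] mean lay below WT by 0.32 without LPS (difference -0.32), and the difference was -0.65 at 0.5 h, -2.43 at 1 h, and -1.98 at 2 h. At 1 h the 6 Map3k8[D270A] libraries lay between 14.21 and 15.07, and 1 of the 6 WT libraries (14.88) fell inside that range. The 0.5 h difference was -1.19 without Map3k8[D270A] replicate 2 and -0.36 without WT replicate 6, and the 2 h difference was -1.06 without WT replicate 5. Of all genes, 0.618%, 4.11%, and 11% were called with LPS in WT cells, and 0.0668%, 0.134%, 0.292%, and 0.677% between Map3k8[D270A] and WT cells at the 4 times. Single high libraries were also present in the mutant, at 17.99 (replicate 2, 0.5 h) and 17.50 (replicate 2, 2 h), where the other 5 libraries of each group were at most 15.12 and 15.30.

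In the remaining arms the response of Rn45s to LPS was tested with limma over all 11971 genes with Benjamini-Hochberg adjustment. Rn45s was chosen with earlier results across all samples known, these arms included, so the p-values are not independent of that choice. A gene was called at an adjusted p below 0.05 with a change of at least 2-fold. In Elk1-/-Elk4-/- cells the 4 libraries without LPS read 14.58, 14.66, 17.42, and 14.55, those at 0.5 h 18.65, 14.79, 15.09, and 14.83, those at 1 h 14.66, 16.60, 18.36, and 15.58, and those at 2 h 14.80, 14.45, 15.06, and 15.27. A single library was far above the others without LPS and at 0.5 h, and the groups overlapped. The log2 differences from no LPS were 0.54 at 0.5 h, 1.00 at 1 h, and -0.41 at 2 h, each with a limma SE of 0.82, and none was called (limma adjusted p = 0.906, 0.394, and 0.678). The share of all genes called in these comparisons was 0.752%, 3.49%, and 10.2%. Without replicate 1 at 0.5 h the first difference was -0.40. The 1 h difference was 0.31 without replicate 3 at 1 h and 1.70 without replicate 3 of the cells without LPS, and without the latter the 2 h difference was 0.30. Neutrophil markers were high in all libraries of this arm, with a log2 summed level of 10.03 to 11.04, and their part in Rn45s was not tested.

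In Nfkb1[SS/AA] cells Rn45s read 14.17 to 14.99 without LPS (median 14.47). At 0.5 h it ranged from 13.81 to 18.79 (median 15.33), with 3 of 6 libraries high (16.25, 16.13, and 18.79). At 1 h all 6 libraries lay between 13.56 and 14.48 (median 13.94), the lowest group mean of the series. The log2 difference from no LPS was 1.07 ± 0.67 (SE) at 0.5 h and -0.56 ± 0.67 at 1 h, and neither was called (limma adjusted p = 0.326 and 0.539), against 0.735% and 3.58% of all genes. Without replicate 5 at 0.5 h the first was 0.43. Beside WT cells, given as values only, these cells differed by -0.82 without LPS, -0.36 at 0.5 h, and -3.13 at 1 h, and the groups did not overlap without LPS or at 1 h (0.51%, 0.551%, and 1.17% of all genes called). The 0.5 h difference was -1.0 without Nfkb1[SS/AA] replicate 5 and -0.01 without replicate 3.

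With PD0325901 alone Rn45s read 14.18, 14.07, and 14.47 at 10 min, 14.00, 16.13, and 14.95 at 40 min, and 14.29, 14.37, and 16.12 at 70 min. The 3 DMSO libraries read 13.94, 14.61, and 17.88. With LPS after the compound, the values ranged from 14.00 to 15.56 at 0.5 h (median 14.34) and from 14.23 to 18.06 at 1 h (median 15.01). Each of these groups overlapped the one it was compared with. PD0325901 at 10 min differed from DMSO by -1.24 ± 0.95 (SE; -0.03 without DMSO replicate 3), and the later times from 10 min by 0.79 ± 0.95 at 40 min and 0.69 ± 0.95 at 70 min. LPS for 0.5 h differed from the compound alone for the same total time (40 min) by -0.45 ± 0.82, and LPS for 1 h from 70 min by 0.64 ± 0.82. No PD0325901 comparison of Rn45s was called (limma adjusted p from 0.57 to 1), while 0%, 0.284%, 0.342%, 0.852%, and 4.35% of all genes were. In the comparison with DMSO, where limma called 0 genes, 245 of 11971 had an unadjusted p below 0.05. The 40 min comparison with LPS turned to 0.10 without replicate 2 of the 40 min group, the 40 min difference from 10 min fell to 0.24 without that library, the 70 min difference fell to 0.09 without replicate 3 of the 70 min group, and the 1 h LPS difference fell to 0.14 without LPS replicate 2.

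RSKi47 was the arm in which Rn45s was high in every library without LPS and lower in every library with it. Without LPS the 4 libraries read 18.06, 18.27, 18.95, and 19.25. After 0.5 h of LPS the 3 libraries read 16.27, 17.15, and 16.88. At 1 h they read 15.57, 15.40, 15.64, and 15.78, and at 2 h 15.30, 15.56, 15.91, and 15.90. No group with LPS overlapped the group without, and the groups were tight (SD from 0.16 to 0.56). The log2 summed level of the neutrophil markers was 7.47 to 7.80 without LPS. With LPS it was 7.06 to 7.68 at 0.5 h, 7.66 to 8.42 at 1 h, and 7.90 to 8.58 at 2 h. The part of these markers in Rn45s was not tested.

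Relative to no LPS, in RSKi47-treated cells Rn45s fell by 3.03 ± 0.82 (SE) on the log2 scale at 1 h, an 8.18-fold decrease (limma adjusted p = 0.00199), and by 2.96 ± 0.82 at 2 h, a 7.80-fold decrease (limma adjusted p = 0.00107). The RSKi47 libraries without LPS had the compound for 10 min, and those with LPS had it for 10 min and then for the time of LPS as well, so LPS and time with RSKi47 cannot be told apart in any RSKi47 comparison here. In these comparisons 2.8% and 7.28% of all genes were called, and 0.451% and 1.69% were called lower. At 0.5 h the difference was -1.86 ± 0.89 and was not called (limma adjusted p = 0.279; 0.668% of all genes called). These SEs rest on the spread pooled over all 25 groups (SD 1.18 for Rn45s), wider than that within the RSKi47 groups (SD from 0.16 to 0.56). With the RSKi47 libraries fitted alone and the replicate number as a block, the 0.5 h difference was -1.75 and was called (limma adjusted p = 0.000248). A two-sided exact permutation test over the libraries, added after the values were seen, gave p = 0.0286 at 1 h and at 2 h, the smallest that 4 against 4 libraries allow, and p = 0.0571 at 0.5 h, the smallest for 3 against 4. Adjusted over the 13 comparisons of Rn45s, these exact p-values were 0.124, 0.124, and 0.186. Given as values, RSKi47-treated cells lay above WT cells by 3.28 without LPS, where the groups did not overlap, and by 0.81 at 0.5 h, and they differed from WT by -1.49 at 1 h and -1.40 at 2 h (1.34%, 1.29%, 1.55%, and 2% of all genes called at the 4 times). The 2 h difference was -0.49 without WT replicate 5, and its lowest value with 1 library left out was -2.04.

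The 1 h response of Rn45s differed among the 4 tested arms, from -3.03 with RSKi47 to 1.00 in Elk1-/-Elk4-/- cells (limma F = 4.93, adjusted p = 0.0345), as did the response of 10.5% of all genes. Rn45s was chosen with earlier results across all samples known, so this p is not independent of the choice. Each arm is also an experiment of its own, and the arm and the experiment cannot be told apart. The baselines differ too, since PD0325901 with LPS was set against 70 min of the compound, RSKi47 with LPS against 10 min of the compound, and the other arms against untreated cells, and the part of compound time in this difference was not tested. The call was lost when 1 library was left out in 11 of 37 cases, with limma adjusted p from 0.0533 to 0.08. Those libraries were replicates 1, 2, and 4 without LPS and replicate 3 at 1 h of Elk1-/-Elk4-/- cells, replicates 1 and 2 of PD0325901 at 70 min, and replicates 3 and 4 without LPS and 1, 2, and 3 at 1 h of RSKi47.

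By group mean, Rn45s was highest in RSKi47 without LPS (18.63 ± 0.56, SD, n = 4), then in WT at 1 h (17.09 ± 2.16, n = 6) and 2 h (17.07 ± 2.08, n = 4), and lowest in PD0325901 at 10 min (14.24 ± 0.21, n = 3) and Nfkb1[SS/AA] at 1 h (13.96 ± 0.30, n = 6). All 24 pairs of neighbours in this order had overlapping ranges.

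Mir6236 behaved as a row with 2 levels. In 98 libraries it lay at or under 3.31 on the log2 scale, and in 21 it was at 4.80 or above, with no library between. The 21 were all 15 RSKi47 libraries and the 6 libraries of PD0325901 alone at 40 and 70 min, so that 6 groups were wholly high and 19 wholly low. Only these 21 reached the filter value of 3.32 (10 on the linear scale), and Mir6236 passed the filter through them alone. Its differences are therefore given as a description, without a test.

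**Figure D2:**
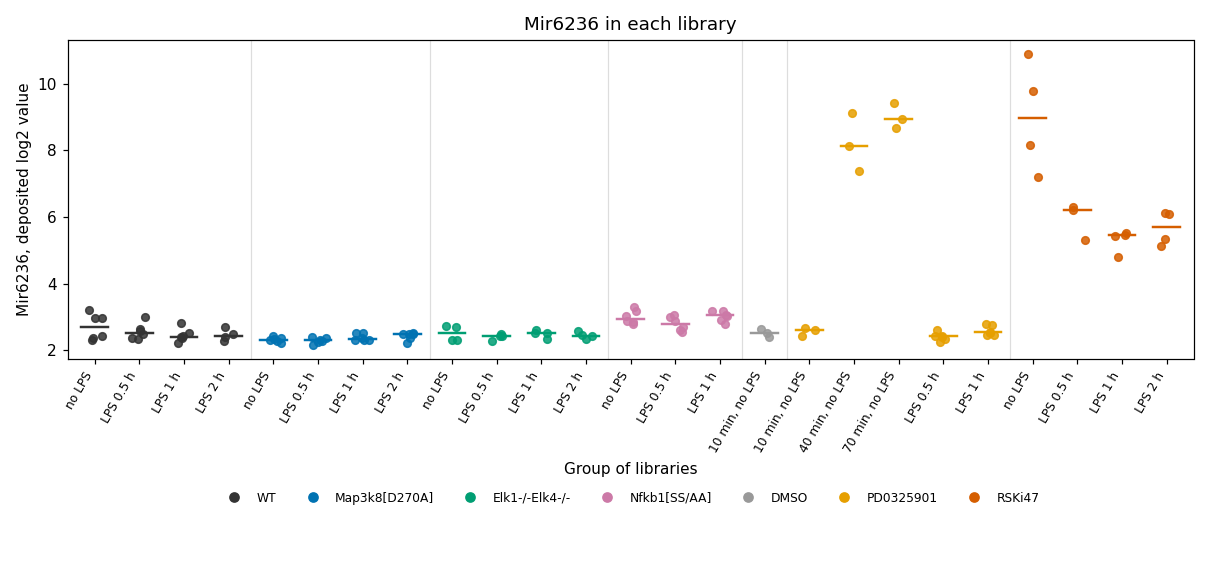
Mir6236 in each library (deposited log2 value, y axis) by group (x axis), with 1 point per library and a line at the group median. The RSKi47 libraries and the PD0325901 libraries at 40 and 70 min without LPS lie at 4.80 to 10.89, and the other 98 lie between 2.17 and 3.31.

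In the PD0325901 experiment, Mir6236 read 2.39 to 2.64 with DMSO and 2.42 to 2.68 after 10 min of the compound. It then read 7.39, 8.13, and 9.13 at 40 min and 8.68, 8.94, and 9.44 at 70 min. With LPS after the compound, and so for the same total times, all 6 libraries at 0.5 h (2.26 to 2.62) and all 6 at 1 h (2.47 to 2.78) were low. The mean at 40 min lay above that at 10 min by 5.65, and the mean at 70 min by 6.46. The means with LPS differed from those at matched times without by -5.80 (0.5 h) and -6.43 (1 h). Rn45s ran from 14.00 to 16.13 in the 6 high libraries. The summed level of the neutrophil markers was 8.42 to 8.78 in these 6 libraries, 7.27 to 8.07 at 10 min, and 8.07 to 8.80 with LPS, where Mir6236 was low. The summed level of the 3 B cell markers, all under the filter, was 3.27 to 3.42 in the 6 libraries and at most 3.25 in the others of the experiment, with no overlap, and it was 3.42 to 4.02 in Elk1-/-Elk4-/- libraries, where Mir6236 was low. The part of either list in Mir6236 was not tested.

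In RSKi47-treated cells without LPS, Mir6236 read 7.21, 8.17, 9.80, and 10.89. After LPS it read 5.32, 6.29, and 6.21 at 0.5 h, 5.44, 4.80, 5.53, and 5.47 at 1 h, and 5.12, 5.33, 6.11, and 6.08 at 2 h. No group with LPS overlapped the group without, and the log2 differences were -3.08, -3.70, and -3.36. In these comparisons 0.668%, 2.8%, and 7.28% of all genes were called, and the share of all genes without overlap was not counted. Beside WT cells at the same times, the RSKi47 means were higher by 6.31 without LPS and by 3.38, 2.85, and 3.20 after LPS, with no overlap at any time. Of all genes, 1.34%, 1.29%, 1.55%, and 2% were called at the 4 times.

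In the genetic arms Mir6236 stayed low throughout. Its range was 2.23 to 3.20 in WT cells, 2.17 to 2.53 in Map3k8[D270A] cells, 2.28 to 2.74 in Elk1-/-Elk4-/- cells, and 2.56 to 3.31 in Nfkb1[SS/AA] cells. The LPS differences in WT cells were -0.14, -0.24, and -0.24, and those between Map3k8[D270A] and WT cells ran from -0.38 without LPS to -0.04 at 2 h, where the groups overlapped at all 4 times. In the order of group means, PD0325901 at 70 min (9.02 ± 0.39, SD, n = 3), RSKi47 without LPS (9.02 ± 1.65, n = 4), and PD0325901 at 40 min (8.22 ± 0.88, n = 3) came first, and their ranges overlapped. The 3 RSKi47 groups with LPS came next (5.31 to 5.94), and the other 19 group means (2.30 to 3.03) overlapped from neighbour to neighbour.

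**Figure D3:**
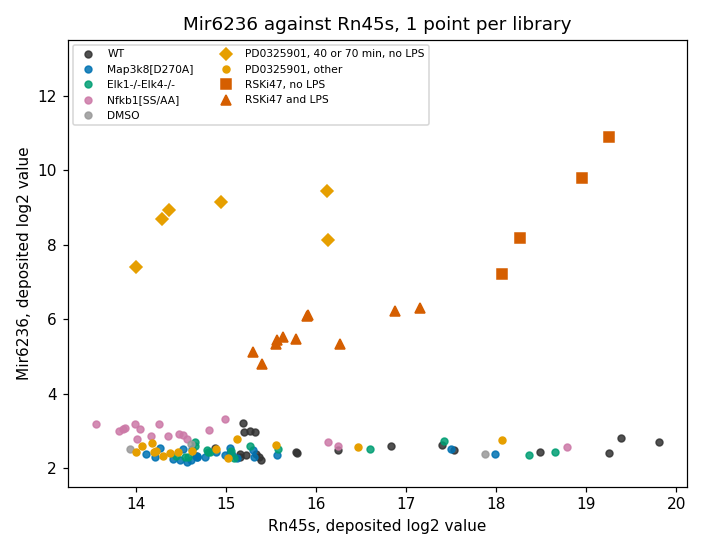
Mir6236 (y axis) against Rn45s (x axis), both as deposited log2 values, with 1 point per library. Squares and triangles are RSKi47 libraries, in which both rows rank together, diamonds are PD0325901 at 40 or 70 min without LPS, and the 98 other libraries lie along the bottom whatever their Rn45s level.

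The rows did not mark the same libraries. Of the 29 libraries with high Rn45s, 9 also had high Mir6236, and in the other 20 Mir6236 was between 2.35 and 2.81. In turn, 12 of the 21 libraries with high Mir6236 had Rn45s under the limit, at 14.00 to 15.91. The rows are called here by their gene names, because their rRNA origin was not tested. Within groups, the deviations of both rows from their group means were correlated, as a description without a p, since Mir6236 lay under the filter value in 98 libraries and Rn45s was selected on the WT and Map3k8[D270A] libraries. Over all libraries Pearson's r was 0.16 and Spearman's rho 0.20.

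In the 15 RSKi47 libraries, all above the filter value for Mir6236, the rows ranked together, with r = 0.93 and rho = 0.96, and r was 0.93 without the 2 libraries farthest from the median of the Rn45s deviation. Same-numbered RSKi47 libraries deviated together across genes, so that these 15 points are not independent. In the other experiments Mir6236 was under the filter value in all or most libraries. In the 46 WT and Map3k8[D270A] libraries r was 0.28, in the 16 Elk1-/-Elk4-/- libraries 0.14, in the 24 DMSO and PD0325901 libraries 0.24, and in the 18 Nfkb1[SS/AA] libraries -0.55. Without the 2 farthest libraries these were 0.23, -0.20, 0.32, and -0.42.

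The genes most like Rn45s in their deviations from group means, over all libraries, were Lars2 (r = 0.76), the mitochondrial leucyl-tRNA synthetase, Malat1 (r = 0.74), an abundant nuclear non-coding RNA, Entpd7 (r = 0.63), a nucleotidase, Emc1 (r = 0.58), a subunit of the ER membrane protein complex, Gtf2a1 (r = 0.53), a general transcription factor subunit, and Dpysl2 (r = 0.53), a microtubule-binding protein. The lowest were Zfp808 (-0.37), Slc30a5 (-0.36), and A630089N07Rik (-0.35). These values describe libraries that share groups and experiments. For Entpd7, r was -0.36 in the RSKi47 libraries and 0.64 to 0.77 in the other experiments. Mir6236 stood at place 762 of 11970 in this order. By the means of the 25 groups, the genes most like Rn45s were Malat1 (r = 0.74), Jazf1 (0.70), Lrrc8a (0.68), and Entpd7 (0.66).

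**Figure D4:**
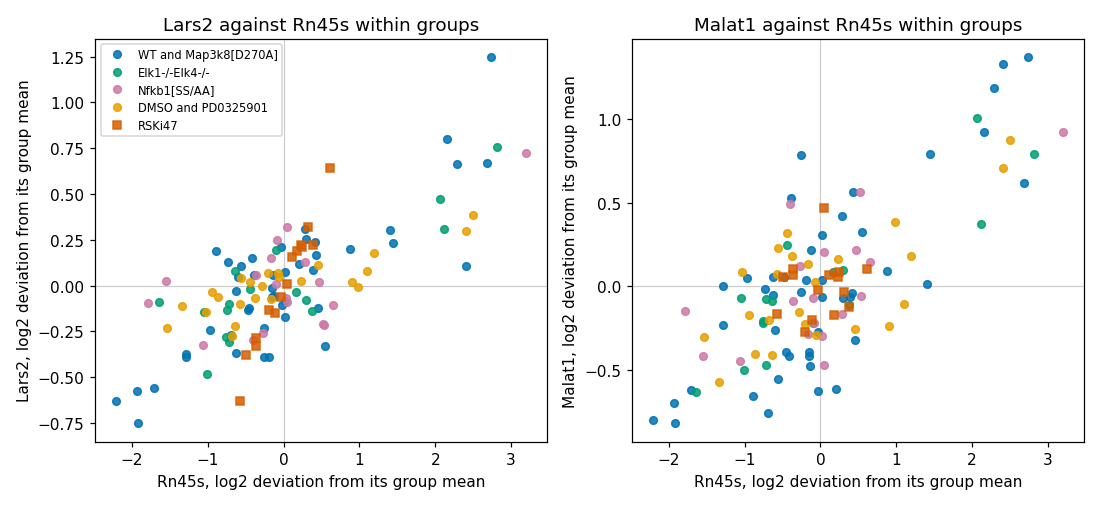
Deviation of Lars2 (left) and Malat1 (right) from the group mean against that of Rn45s, in log2 units, with 1 point per library. Lars2 follows Rn45s in all 5 experiments (r from 0.58 to 0.98), and for Malat1 r was 0.13 in the RSKi47 libraries (squares) and 0.68 to 0.88 in the other experiments.

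Lars2 is also on a short list of rows held to contain rRNA-like sequence in some mouse builds, of which 4 of 7 were measured (Lars2, Cmss1, Cdk8, and Erdr1). It followed Rn45s in each experiment, with r = 0.83 in the WT and Map3k8[D270A] libraries, 0.85 in the Elk1-/-Elk4-/- libraries, 0.85 in the PD0325901 experiment, 0.98 in the RSKi47 libraries, and 0.58 in the Nfkb1[SS/AA] libraries. In the WT library with the highest Rn45s (replicate 5, 2 h) Lars2 was at 16.24, its highest value. Its level nevertheless differed between arms in its own way. The RSKi47 libraries without LPS read 13.89, 14.19, 14.84, and 15.16 for Lars2, in the same order as Rn45s and Mir6236, and the other RSKi47 libraries read 12.81 to 13.55, under every library of the other arms (14.04 or more). With LPS in RSKi47-treated cells, Lars2 fell by 1.19 after 0.5 h, fell by 1.52 after 1 h, and fell by 1.42 after 2 h (limma adjusted p = 0.000565, 7.48e-08, and 1.44e-07), and it was the only gene of the 4 called there, against 0.0501%, 0.451%, and 1.69% of all genes called lower. Without replicate 4 of the cells without LPS these differences were -0.98, -1.31, and -1.21, and the first of them lies under the 2-fold limit. An alignment of the cytoplasmic and mitochondrial rRNA transcripts of the annotation to all transcripts, at 85% identity over at least 40 bases, found 1 row of the data table, Gm20594, and neither Lars2 nor Malat1. The search could not include 28S rRNA.

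Malat1 read 13.25 to 14.16 in the RSKi47 libraries, with a median of 13.52 beside 11.82 to 12.67 for the other arms. Its range overlapped those of WT (up to 14.23), Elk1-/-Elk4-/- (up to 13.54), Map3k8[D270A] (up to 13.44), and Nfkb1[SS/AA] cells (up to 13.40). It was not called with LPS there (log2 differences of -0.21, 0.02, and -0.22, limma adjusted p from 0.598 to 0.984). Of the 5 long nuclear RNAs listed, 3 passed the filter (Malat1, Neat1, and Kcnq1ot1), and 0 were called by limma with LPS in RSKi47-treated cells (0, 0, and 2 of them at an unadjusted p below 0.05 at 0.5, 1, and 2 h). Kcnq1ot1, an antisense RNA of an imprinted locus, fell by 0.63 after 2 h in those cells (limma adjusted p = 3.55e-05), and Neat1, a nuclear RNA of paraspeckles, fell by 0.77 (limma adjusted p = 0.0221), both under the 2-fold limit.

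The genes most like Mir6236 by group means were Fat1 (r = 0.92), a protocadherin, Serpinh1 (0.91), a collagen chaperone, Serpine2 (0.89), a protease inhibitor, and Gpd1 (0.88), a glycerol-3-phosphate dehydrogenase. They were high in the libraries of PD0325901 alone at 40 and 70 min. Serpine2 read 7.51 to 8.08 in those 6 libraries, 5.51 to 5.65 at 10 min, and 5.24 to 5.49 in the 12 libraries with PD0325901 and LPS. Serpinh1 read 3.85 to 4.20 in the 6 libraries and 2.35 to 2.64 at 10 min, and Fat1 read 3.32 to 3.79 and 1.67 to 1.81. The choice of these genes by their group means fixes that they are high in the same groups. Within groups of the DMSO and PD0325901 experiment their deviations ran against those of Mir6236, with r = -0.66 for Fat1, -0.24 for Serpinh1, -0.71 for Serpine2, and -0.52 for Gpd1 over 24 libraries. Outside the 6 libraries at 40 and 70 min, Mir6236, Fat1 (1.65 to 1.93), and Gpd1 (2.56 to 2.98) lay under the filter value of 3.32 in this experiment. In RSKi47-treated cells Serpine2 lay between 5.77 and 6.95, with no step between libraries without and with LPS. The RSKi47 group means of Fat1 were 2.30 to 2.62, beside 1.66 to 1.94 in the groups with low Mir6236. Those of Gpd1 were 3.06 to 3.43, beside 2.68 to 3.17.

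By deviations from group means, the genes most like Mir6236 were Col1a1 (r = 0.54), a collagen chain, Ilvbl (0.50), Tst (0.48), Gde1 (0.44), Mgst1 (0.44), and Id3 (0.43), and the lowest were Ctnnd2 (-0.44), Elovl6 (-0.41), and Dab2 (-0.41). For Col1a1 the rank correlation was 0.29, and r was 0.62 in the RSKi47 libraries, 0.46 in the WT and Map3k8[D270A] libraries, 0.44 in the Elk1-/-Elk4-/- libraries, 0.25 in the PD0325901 experiment, and -0.03 in the Nfkb1[SS/AA] libraries. Rn45s stood at place 1539 of 11970. Col1a1 is a fibroblast marker. The summed level of the 3 fibroblast markers (Col1a1, Col1a2, and Col3a1) ran from 5.01 to 9.41 on the log2 scale in the RSKi47 libraries, from 3.92 to 4.71 in the 6 PD0325901 libraries with high Mir6236, and from 3.82 to 4.88 in the other 98. The highest value belonged to RSKi47 replicate 4 without LPS, in which Col1a1 was at 9.03 and both Rn45s and Mir6236 were at the top of their group. Col1a2 was at 7.28 in that library and at 4.46 to 5.05 in the other 3 of its group, and Col3a1 was at 1.63 to 1.79 in the 4. With LPS in RSKi47-treated cells Col1a1 differed by -1.78, -1.24, and -1.15 at the successive times and was called lower at each (limma adjusted p = 0.000359, 0.0026, and 0.00254). Col1a1 was picked by its likeness to Mir6236, so these p-values are not independent of that choice. In the 98 libraries with low Mir6236 its median was 2.61 and its highest value 3.44, beside the filter value of 3.32. Without replicate 4 of the cells without LPS, a choice made after the values were seen, the Col1a1 differences with LPS were -0.62, -0.08, and 0.01. Col1a2 was not called (-0.93, -0.18, and -0.61). The part of these cells in the levels of Rn45s and Mir6236 was not tested. Without that library the Rn45s difference at 1 h in RSKi47-treated cells was -2.83, and the Mir6236 difference was -3.08. For a row measured in bulk, fewer cells of a type and less RNA per cell cannot be told apart.

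The genes that make and process rRNA were called at about the share of all genes or below it. Of a list of 53 genes of RNA polymerase I transcription and ribosome assembly, all were measured. In RSKi47-treated cells, where Rn45s fell at 1 h, 0 of the 53 were called at 1 h (6 higher and 4 lower by adjusted p alone, 18 at an unadjusted p below 0.05, limma), beside 2.8% of all genes called and 29% passing by adjusted p alone. At 2 h 1 was called higher (29 higher and 4 lower by adjusted p alone), beside 7.28% of all genes called and 62.2% passing by adjusted p alone. With 53 genes, counts this small do not set the list apart from all genes. The list's median difference was -0.01 at 1 h and 0.16 at 2 h, beside 0.01 and 0.00 for all genes. Rrs1, a ribosome assembly factor, was the gene called at 2 h (higher by 1.62, limma adjusted p = 7.43e-44).

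Rrs1 also rose with LPS in the other tested arms. It was higher by 1.02 at 1 h and 1.45 at 2 h in Elk1-/-Elk4-/- cells (limma adjusted p = 2.23e-28 and 2.9e-40), by 1.21 at 1 h in Nfkb1[SS/AA] cells (limma adjusted p = 1.39e-40), and by 1.45 at 1 h after PD0325901 (limma adjusted p = 1.13e-39). Wdr43, a factor of small-subunit processing, was called in Elk1-/-Elk4-/- cells at 2 h (higher by 1.20, limma adjusted p = 4.98e-40). Of the 53 genes, 34 were higher and 5 lower by adjusted p alone in that comparison, where 67.9% of all genes passed. In the 3 comparisons without LPS in the PD0325901 experiment 0 of 53 were called by limma, with 1 lower by adjusted p alone at 70 min (6.09% of all genes), and 2, 6, and 6 had an unadjusted p below 0.05.

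The initiation factor Rrn3 (TIF-IA) differed in RSKi47-treated cells by 0.03, 0.04, and 0.16 at the successive LPS times, and the last passed by adjusted p alone (limma adjusted p = 9.33e-05). Ubtf, which binds the rRNA gene promoter, differed by -0.07 at 1 h and -0.15 at 2 h (limma adjusted p = 0.121 and 8.41e-05). Polr1b, a subunit of the polymerase, differed by -0.13 at 1 h and -0.05 at 2 h (limma adjusted p = 0.171 and 0.574). Fibrillarin (Fbl), nucleolin (Ncl), and nucleophosmin (Npm1), which act in rRNA modification and assembly, differed by 0.00, 0.08, and 0.10 at 1 h and by 0.19, 0.13, and 0.20 at 2 h. None of these 6 changed by 2-fold.

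Other short non-coding rows were set beside Mir6236. Of 196 further rows in the table, of the miRNA, snoRNA, and scaRNA kinds or on a list of other non-coding RNAs, 10 passed the filter, 4 of them host genes. With LPS for 0.5 h in RSKi47-treated cells, 1 of these 10, Mir155hg, was called higher by limma, beside 0.668% of all genes. With LPS for 1 h in those cells, 2 of the 10 were called, beside 2.8% of all genes. Mir155hg, the host gene of miR-155, and Mir6244 were higher by 3.94 and 1.31 (limma adjusted p = 4.93e-27 and 1.41e-09), and at 2 h Mir155hg alone of the 10 was called, higher by 4.24 (limma adjusted p = 1.03e-29; 7.28% of all genes called). With PD0325901 and LPS, where the mean of Mir6236 was lower than without LPS, 2 of the 10 were called at 0.5 h (0.852% of all genes) and 4 at 1 h (4.35%), and all were higher. These were Mir155hg (1.40 and 3.93) and Mir684-1 (1.20 and 1.07) at both times, and Mir6244 (1.07) and Mir22hg (1.06) at 1 h. Of 68 histone genes, whose mRNAs lack a poly(A) tail when replication-dependent, 12 passed the filter, and 0 were called by limma in any of the 13 tested comparisons, beside 0% to 10.2% of all genes, and all 12 had an unadjusted p below 0.05 in at least 1. With 12 genes, 0 is close to that share in most of these comparisons. Beside WT cells, where the arm and the experiment cannot be told apart, Hist1h2ap was called higher in RSKi47-treated cells at all 4 times, Hist1h1c lower at 0.5 and 2 h, and Hist1h1d lower at 0.5 h, and Hist1h1c was called lower with DMSO.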

How the data were processed

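RNA was extracted with the RNeasy kit, made into strand-specific single-end TruSeq libraries, and sequenced on an Illumina HiSeq. Per the submitters' processing notes, RSEM 1.2.29, STAR 2.5.1b, DESeq2 1.10.1, and mm10 were used. The deposited table holds normalized values of 18098 genes on a log2 scale, made by the authors from RSEM gene counts. No source used here gives the exact transformation. The paper gives a typical sequencing yield only, and the reads of each library are not known. A single impossible value (57.73, Fosb in one RSKi47 library) was masked.

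Group means were fitted to all libraries with limma 3.58.1 in R 4.3.3, over the 11971 genes that reached 10 on the linear scale in 3 or more libraries, with Benjamini-Hochberg adjustment. A call needed an adjusted p below 0.05 and a 2-fold change. The fit was tested on simulated data. Correlations of deviations from group means were computed with numpy 2.4.6. Sequences came from RefSeq (GRCm38.p6) and transcripts from GENCODE, aligned with blastn 2.17.0.

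The members and lists were chosen with earlier results of these data known. Tests of Mir6236 and of its correlation with Rn45s had been planned but are not given, because it passed the filter only through the groups in which it was high. Besides the members, the genes named are the 6 most and 3 least like each member by deviations, the 4 most like by group means, and listed genes. Replicate numbers come from the labels, which name no shared animal. Same-numbered libraries deviated together, with r above 0.1 in every pair, in Elk1-/-Elk4-/- cells at 1 h (0.141 to 0.468), in Nfkb1[SS/AA] cells at 0.5 h (0.362 to 0.672) and 1 h (0.145 to 0.519), and with RSKi47 at 0.5 h (0.109 to 0.265), 1 h (0.265 to 0.697), and 2 h (0.347 to 0.62). The main fit and the exact permutation test did not use these pairs, which entered only through the replicate block. Alternatives were a replicate block, the libraries of 1 experiment alone, an intensity trend, no filter, equal library medians, quantile normalization, leaving out each library, and an exact permutation test added after the data were seen.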

Additional observations from a re-analysis of the deposited data

Results flagged for a closer look

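In 20 groups of 4 or more libraries, each row was searched for a library far from the rest by Dixon's criterion, which chance alone meets in about 5% of groups. The results are a description, since 3 of the 5 Rn45s libraries found are among the WT and Map3k8[D270A] libraries it was selected on, and Mir6236 was under the filter on low values in most groups. For Rn45s, 5 libraries stood above their groups. They were WT without LPS replicate 7 at 15.78 (the nearest library was at 15.37), Map3k8[D270A] at 0.5 h replicate 2 at 17.99 (nearest 15.12) and at 2 h replicate 2 at 17.50 (nearest 15.30), Elk1-/-Elk4-/- without LPS replicate 3 at 17.42 (nearest 14.66), and Elk1-/-Elk4-/- at 0.5 h replicate 1 at 18.65 (nearest 15.09). For Mir6236, RSKi47 at 1 h replicate 2 stood below its group at 4.80 (nearest 5.44).

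The response of Rn45s to LPS for 1 h differed among the Elk1-/-Elk4-/-, Nfkb1[SS/AA], PD0325901, and RSKi47 arms (limma adjusted p = 0.0345). Rn45s was chosen with earlier results across all samples known, so this p is not independent of the choice. The arms are separate experiments, and the arm and the experiment cannot be told apart.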

How the results depend on the processing

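The fall of Rn45s in RSKi47-treated cells at 1 h and 2 h kept its direction and call under every limma alternative run. By the exact permutation test the differences of -3.03 and -2.96 no longer passed (adjusted p = 0.124 for both), a test whose smallest p at this size is 0.0286. At 0.5 h the difference passed with the RSKi47 libraries fitted alone (-1.86) and with the replicate block (-1.75), and the block changed no other call. Leaving out 1 library gave 3.67 to 4.73 for the difference among the arms in the 1 h response, -0.40 to 1.24 for Elk1-/-Elk4-/- cells at 0.5 h, -0.66 to 0.30 for those at 2 h, and -0.96 to 0.10 for PD0325901 with LPS for 0.5 h. For Mir6236, the difference in Elk1-/-Elk4-/- cells at 2 h was -0.38 after quantile normalization (-0.06 as deposited). The correlation of the rows in Elk1-/-Elk4-/- libraries was -0.20 without the 2 farthest libraries, and in Nfkb1[SS/AA] libraries it was -0.42 without them and -0.53 with equal library medians. Of 241 alternatives for Rn45s 223 kept direction and side of the threshold. Mir6236 has no test, and under 217 of 218 alternatives its differences moved by less than 1 SD between replicates. With 1 library left out, differences near 0 changed sign in Elk1-/-Elk4-/- cells at 1 h (-0.09 to 0.05) and 2 h (-0.13 to 0.01), in Nfkb1[SS/AA] cells at 1 h (-0.02 to 0.08), and between PD0325901 and DMSO at 10 min (-0.01 to 0.13). Fits within 1 experiment gave no value for Mir6236 in the Elk1-/-Elk4-/- and Nfkb1[SS/AA] experiments, where it was under the filter. Causes of these changes were not tested. Depth per library is unknown, so no counting error can be given, and the origin of the reads on either row was not tested.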

Other observations

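In WT cells without LPS, Mir6236 read 2.96 to 3.20 in replicates 4 to 6 and 2.30 to 2.42 in replicates 7 to 9, with no overlap, a split chosen after the values were seen and tied to no labelled batch. With LPS the same sets overlapped, at 2.33 to 2.99 and 2.38 to 2.58 (0.5 h), 2.40 to 2.81 and 2.23 to 2.42 (1 h), and 2.29 to 2.69 and a single library at 2.40 (2 h). All of these values lie under the filter on low values. Rn45s read 15.19 to 15.32 and 15.22 to 15.78 in the same libraries.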
